A study of Mus musculus with 25 samples.

Results

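The jejunum of early-weaned mouse pups given 2'-fucosyllactose (2'-FL) was compared with the jejunum of early-weaned pups given lacto-N-neotetraose (LNnT). The members are the libraries labelled FL, set against those labelled LNnT. They number 10 of the 25 libraries in the series, 5 a side, and every gene with enough counts was tested. EW+2'-FL denotes pups weaned on postnatal day 15 and given 2'-FL alone, with libraries FL1 to FL5, and EW+LNnT denotes pups weaned on the same day and given LNnT alone, with libraries LNnT1 to LNnT5. All pups had been assigned to groups on day 14, so early weaning is shared by both. The other 15 libraries came from pups given both oligosaccharides (EW+HMOs), early-weaned pups without a supplement (EW) and suckling controls taken on day 21, and they enter only as the common estimate of spread or as levels for orientation. The sources used here give no strain, sex, dose or length of supplementation, and no day of sampling for early-weaned pups. Since nothing in the labels ties a library to its own animal, p-values reflect the spread among libraries, which may be technical.

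Human milk oligosaccharides are unconjugated sugars built on lactose that pass undigested through the small intestine and feed particular gut bacteria. In 2'-FL a fucose is attached to the galactose of lactose. LNnT carries no fucose and extends lactose with a unit of N-acetyllactosamine, the disaccharide that galectins bind. The small-intestinal lining renews itself from crypt stem cells into absorptive enterocytes, mucus-making goblet cells and Paneth cells, which secrete antimicrobial peptides. Fucose on the surface of enterocytes is added by fucosyltransferases such as Fut2 and is a carbon source for gut bacteria.

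The tissue label was checked against 8 markers of jejunal epithelium. Epcam, the adhesion molecule of all gut epithelial cells, ranged from 735 to 1200 CPM (counts scaled to 1e6 a library, corrected for library composition) in EW+2'-FL and from 1040 to 1370 CPM in EW+LNnT. Apoa4, an apolipoprotein of the upper small intestine, ranged from 7820 to 37000 CPM in EW+2'-FL and from 11600 to 40000 CPM in EW+LNnT. The ileal bile acid binding protein Fabp6 had no count in EW+2'-FL and reached at most 0.115 CPM in EW+LNnT, and the ileal bile acid transporter Slc10a2 stayed at or below 2.11 CPM and 4.3 CPM in these groups. The mean log2 CPM of the 8 markers was 9.8 to 10.96 in EW+2'-FL and 10.4 to 10.76 in EW+LNnT. The values match upper small intestine and not ileum, and they do not separate jejunum from duodenum. The iron handling gene Cybrd1 had 270 CPM in LNnT1 and 3.79 to 15.1 CPM in the other libraries of these groups. Whether LNnT1 came from another stretch of intestine was not tested.

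Library totals were 69.1 to 89.5 M counts (M for 1e6) in EW+2'-FL and 58.7 to 84.6 M in EW+LNnT, a difference in means with p = 0.47 by an exact two-sided permutation test (adjusted p = 0.74 over 4 such tests, smallest possible p = 0.0079). Several libraries stood apart. FL1, LNnT1 and LNnT2 lay far from the rest on the first principal component (119 to 172, against at most 57.4 in any other library of the series) and had the highest shares of mitochondrial counts (8.98% to 9.57%, against at most 7.34% in the other 7). FL2 was high in smooth muscle and connective tissue genes. LNnT3 was high in heat shock and immediate early genes. Pancreatic acinar transcripts made up 0.402% of FL5, 1.1% of LNnT1 and 0.346% of LNnT2, against 0.0016% or less of each of the other 7. Y-linked transcripts were present in FL1, FL3, FL4 and FL5 and in LNnT4 and LNnT5, and Xist marked FL2, LNnT1, LNnT2 and LNnT3, so the groups differ in how many libraries carry them. For many results that rest on such libraries, the value in a set without some of them is given beside it. A result given without such a value is not thereby shown to hold in other sets. One of these sets leaves FL3, FL4 and FL5 against LNnT4 and LNnT5, and it was chosen after the values were seen. The set of libraries with Y-linked transcripts adds only FL1 to it, so these sets are not separate checks. In whole-tissue RNA, fewer cells of a type and less RNA per cell cannot be told apart.

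**Figure D1:**
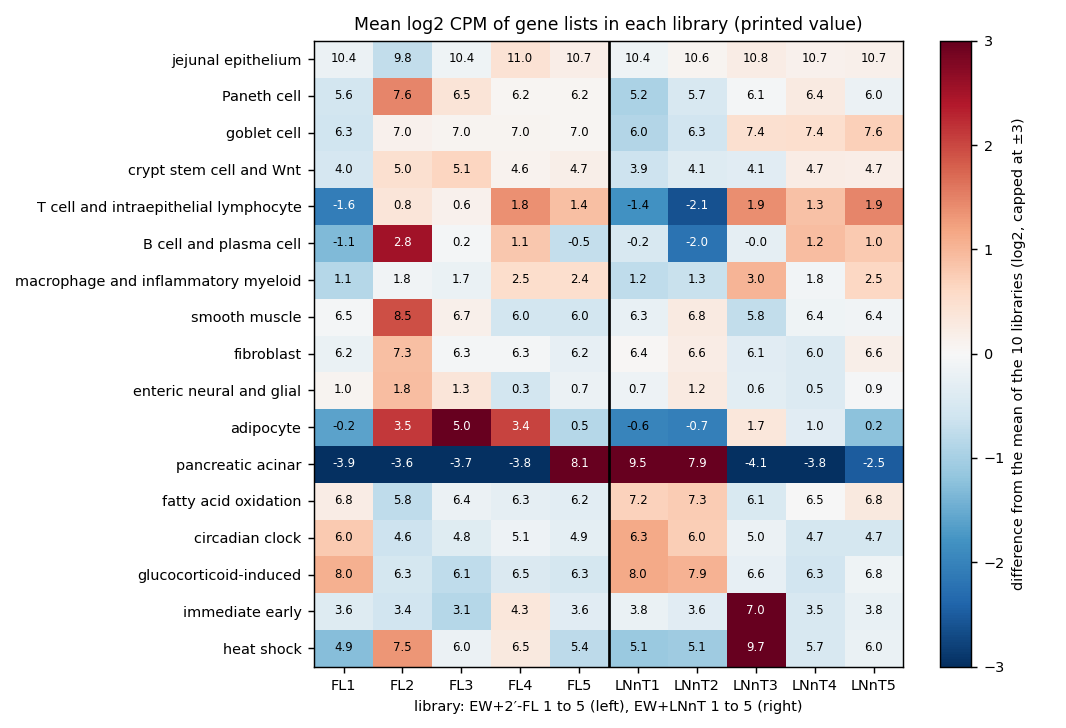
Mean log2 CPM of the members of 17 gene lists (rows) in the 10 libraries (columns, EW+2'-FL left and EW+LNnT right). Printed numbers are the means and colour is the difference from the row's mean over the 10 libraries. FL1, LNnT1 and LNnT2 share high glucocorticoid-induced scores (7.95, 8.02 and 7.93), LNnT3 is highest for heat shock (9.66) and FL2 for smooth muscle (8.48).

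No gene passed the test between the 2 oligosaccharides. Of 22131 genes tested, edgeR's quasi-likelihood test called 0 at a Benjamini-Hochberg adjusted p under 0.05 (0.0%), and the smallest adjusted p was 0.34. At an unadjusted p under 0.05 there were 1884 genes (8.51%), of which 1001 (4.52%) were higher and 883 (3.99%) lower in EW+2'-FL. On the same counts DESeq2 called 66 genes, 35 higher and 31 lower. Linear models in limma called 0 on the voom scale and 1, the surface protein gene Ly6f, on log2(FPKM + 1).

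The intervals show what size of difference these libraries leave possible. The median half-width of the 95% interval of the log2 difference (EW+2'-FL minus EW+LNnT) was 0.64 over all genes and 0.40 over the 11264 genes with a mean of at least 5 CPM. The whole interval lay within 2-fold either way for 11644 genes (52.6%) and for 85% of those with at least 5 CPM. In simulated counts for this contrast, fitted with 21414 genes, the test called 3 of 67 genes changed 1.5-fold (4.48%), 35 of 66 changed 2-fold (53%) and 63 of 66 changed 4-fold (95.5%). The changed genes averaged more than 1 CPM. Each gene varied on its own in the simulation, without libraries that stand apart in many genes, so real recovery may be lower. Differences of 1.5-fold were mostly not detected there, and a missed threshold does not show that both sugars gave the same level. The median log2 difference of all genes was 0.02, and 52.3% of genes had a positive difference. Scaling by library totals alone moved that median to 0.13.

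**Figure D2:**
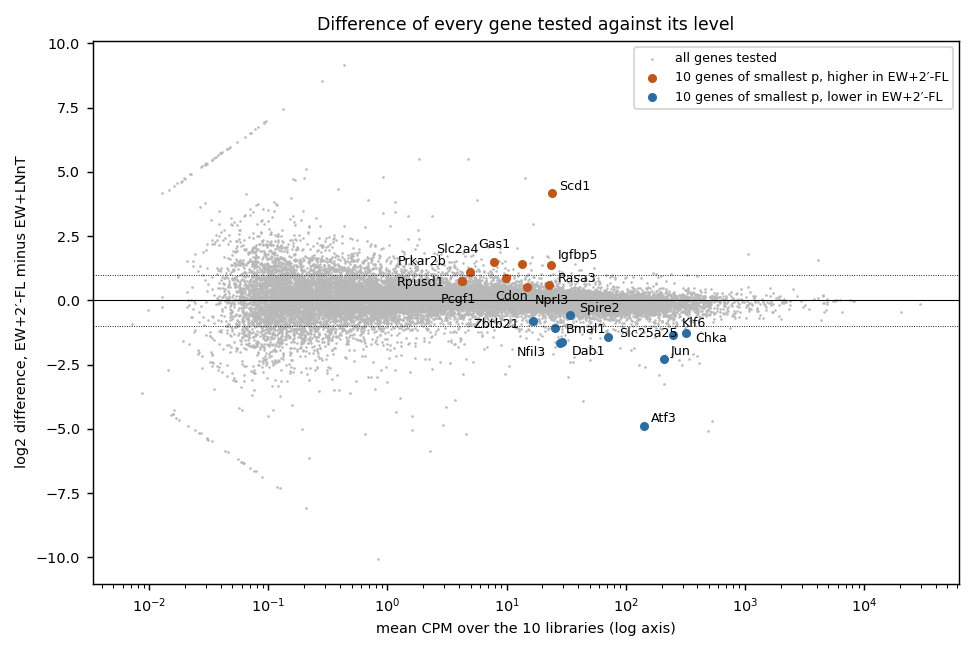
Log2 difference of EW+2'-FL minus EW+LNnT (vertical) against mean CPM over the 10 libraries (horizontal, log axis) for the 22131 genes tested, with dotted lines at 2-fold. Named in each direction are the 10 genes of smallest unadjusted p among those that met the naming conditions on level and separation. All of them have an adjusted p of 0.34 in edgeR. The slanted lines of points at the left are genes without a count in one of the groups.

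The genes with the smallest p above LNnT included some with modest differences in every library and some with large differences that FL2, or FL2 to FL4, carried. Rpusd1, a gene of the RNA pseudouridine synthase family, had 4.36, 6.3, 6.32, 4.36 and 5.21 CPM in FL1 to FL5, against 3.28, 2.91, 2.54, 3.98 and 2.82 CPM in LNnT1 to LNnT5. The groups did not overlap, and the log2 difference was 0.77 ± 0.17 (SE; unadjusted p = 8.9e-05, edgeR adjusted p = 0.34). It lies at chr17:25946644-25950438 on the plus strand (GRCm39). Rasa3, which switches off Ras and Rap proteins, had 23.8, 30.5, 26.6, 27.2 and 27.4 CPM in EW+2'-FL and 13.6, 15.6, 15.9, 22.1 and 23 CPM in EW+LNnT. The 2 groups nearly met, at FL1 and LNnT5, and the difference was 0.59 ± 0.13, with LNnT1 to LNnT3 lowest, and 0.27 among FL3 to FL5 and LNnT4 and LNnT5. Pcgf1, a Polycomb component, and Nprl3, part of a complex that restrains mTORC1 when amino acids are short, also had every EW+2'-FL library above every EW+LNnT library, with differences of 0.76 ± 0.17 and 0.51 ± 0.12 (0.47 and 0.32 in those 5 libraries). Over all genes such separation was seen for 65 genes upward (0.294%) and 49 downward (0.221%). With 5 libraries a side, shuffled group labels would separate a gene, in one direction or the other, with a probability of 0.0079. Both shares together lie below that, so separation alone does not set these genes apart from chance.

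Gas1, a membrane co-receptor for Hedgehog ligands, had 9.82, 52.7, 15.9, 10 and 10.1 CPM in EW+2'-FL against 4.75, 7.07, 6.75, 8.92 and 9.25 CPM in EW+LNnT. FL2 stood far above all others, and the log2 difference of 1.42 ± 0.36 was 0.64 without it. The same held for Igfbp5, a binding protein of insulin-like growth factors (1.38, and 0.64 without FL2), and for Slc2a4, the insulin-responsive glucose transporter of muscle and fat (1.5, and 0.76 without FL2). Cdon, another Hedgehog co-receptor, had a difference of 0.87 and 0.60 without FL2. Prkar2b, a regulatory subunit of protein kinase A, had 3.45, 9.97, 11, 5.74 and 3.59 CPM in EW+2'-FL and at most 4.17 CPM in EW+LNnT (1.11), with FL2 to FL4 high. FL2 was also the library with the most smooth muscle and fibroblast transcript, described with the other cell types, and the part of those cells in these differences was not tested.

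Among the genes of smallest p below LNnT, Spire2 and Dab1 separated the groups in every library. Spire2, an actin nucleator that works in vesicle transport, had 24.4, 24.5, 27.4, 32.6 and 28 CPM in EW+2'-FL and 42.6, 38.4, 42.8, 42 and 39.8 CPM in EW+LNnT. All EW+2'-FL values lay below all EW+LNnT values, and the log2 difference was -0.59 ± 0.13 (unadjusted p = 9.7e-05, edgeR adjusted p = 0.34). It was -0.48 among FL3 to FL5 and LNnT4 and LNnT5. Unsupplemented EW libraries spanned 22 to 36.3 CPM. Dab1, the adaptor of the Reelin pathway, had 25.1, 4.29, 12.5, 16.1 and 13.6 CPM in EW+2'-FL and 25.4, 36.5, 57.3, 50.1 and 53.1 CPM in EW+LNnT. FL1 and LNnT1 almost touched, the other libraries lay far apart, and the difference was -1.63 ± 0.36 (95% interval -2.37 to -0.90). It was -1.87 among FL3 to FL5 and LNnT4 and LNnT5. EW libraries held 11.5 to 35 CPM and suckling controls 41.9 to 69.4 CPM of Dab1. Spire2 lies at chr8:124059452-124096254 and Dab1 at chr4:103476556-104602041, both on the plus strand (GRCm39). Separation downward was seen for 49 genes in all (0.221%), which, as for the upward genes, is no more than shuffled labels would give.

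Zbtb21, a zinc finger repressor, was at 9.85 to 13.4 CPM in EW+2'-FL and 15.4 to 37 CPM in EW+LNnT, with no overlap (-0.79 ± 0.18, and -0.49 without LNnT3). Jun, Atf3, Klf6, the choline kinase Chka and the mitochondrial carrier Slc25a25 are described with the immediate early genes, because LNnT3, or LNnT1 to LNnT3 together, had their highest values. Nfil3 and Bmal1 are described with the clock genes. Of the 20 genes of smallest p in both directions, DESeq2 called 19 and gave no adjusted p for Atf3.

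**Figure D3:**
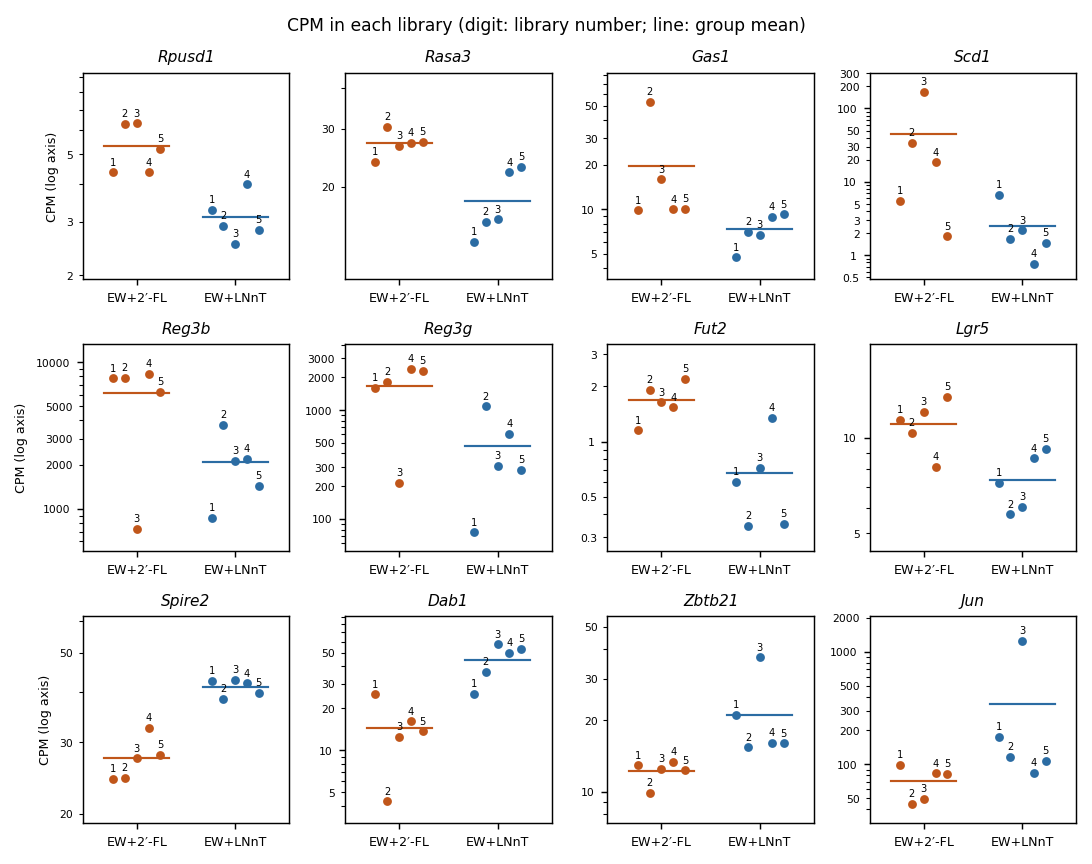
CPM of 12 genes in each library (log axis; EW+2'-FL left, EW+LNnT right; digits are library numbers and lines are group means). Rpusd1, Rasa3, Gas1, Spire2, Dab1 and Zbtb21 do not overlap between the groups, Reg3b and Reg3g are high in 4 of 5 EW+2'-FL libraries and low in FL3, and the Jun mean in EW+LNnT rests on LNnT3.

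Transcripts of secreted antimicrobial lectins had higher values with 2'-FL, without passing the test. Reg3g, a lectin that kills Gram-positive bacteria and holds them away from the epithelium, had 1590, 1810, 216, 2410 and 2280 CPM in EW+2'-FL and 75.4, 1080, 306, 604 and 282 CPM in EW+LNnT. Every EW+2'-FL library except FL3 lay above all 5 EW+LNnT libraries. The log2 difference was 1.82 ± 0.62 (95% interval 0.55 to 3.09, unadjusted p = 0.007). Its close relative Reg3b had 7750, 7840, 728, 8340 and 6270 CPM against 865, 3750, 2130, 2180 and 1430 CPM, with the same exception of FL3, and a difference of 1.58 ± 0.57 (0.40 to 2.75). The differences were 1.88 and 1.5 among FL3 to FL5 and LNnT4 and LNnT5. In that set FL4 and FL5 were high for both genes, and FL3 lay below LNnT4 and LNnT5. The treatment of reads that these 2 paralogs have in common is not given in the sources used here, so their separate values are uncertain. EW libraries had 327 to 4610 CPM and EW+HMOs libraries 3790 to 7220 CPM of Reg3b.

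Of the 18 antimicrobial genes tested, 14 had positive and 4 negative differences. An unadjusted p under 0.05 was reached by 4 upward and 1 downward, against 4.52% and 3.99% of all genes. Their median difference was 0.71. It was 0.52 without FL2, 0.22 among libraries with Y-linked transcripts and 0.14 among FL3 to FL5 and LNnT4 and LNnT5. Lypd8, which coats flagellated bacteria, had a difference of 0.50 ± 0.18, with 1130 to 2380 CPM in EW+2'-FL and 864 to 1750 CPM in EW+LNnT. Pglyrp1, which binds peptidoglycan, had 0.63 ± 0.24 (0.31 without FL2). Zg16, a mucus lectin made by goblet cells, went the other way at -0.84 ± 0.34, with 267 to 536 CPM against 438 to 909 CPM. Of the 18 intervals, 2 lay within 2-fold.

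All 14 Paneth cell genes had positive differences (median 0.85), but FL2 set the size. At an unadjusted p under 0.05 there were 8 of them, against 4.52% of all genes. Defa30, an alpha-defensin, had 122, 870, 255, 188 and 174 CPM in EW+2'-FL and 87.3, 106, 182, 237 and 172 CPM in EW+LNnT. FL2 was more than 3 times any other library, and the log2 difference of 1.04 ± 0.41 was 0.23 without FL2. Lyz1, the Paneth lysozyme, had 352, 1660, 1320, 1030 and 1010 CPM against 285, 419, 1020, 1230 and 987 CPM, where FL1, LNnT1 and LNnT2 were the low libraries. The list's median was 0.23 without FL2, -0.070 among libraries with Y-linked transcripts and 0.084 among FL3 to FL5 and LNnT4 and LNnT5. Defensin genes are near-identical copies, so their separate values are uncertain. Pla2g2a, a secreted phospholipase that lyses bacteria, differed less by library (9.79 to 14.9 CPM against 6.7 to 10.4 CPM; 0.62 ± 0.25).

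Goblet cell genes had a median of -0.13, with 3 of 9 positive. Muc2, the gel-forming mucin, had 210, 273, 408, 399 and 336 CPM in EW+2'-FL and 171, 216, 681, 632 and 864 CPM in EW+LNnT. LNnT3 to LNnT5 were above all EW+2'-FL libraries while LNnT1, FL1 and LNnT2 were lowest, and the difference was -0.66 ± 0.42 (-1.53 to 0.21). Without FL1, LNnT1 and LNnT2 it was -1.03. Clca1, a protease that remodels mucus, was at 35.8 to 272 CPM against 92.6 to 659 CPM (-1.02 ± 0.54), and Fcgbp, a structural mucus protein, at 896 to 1170 CPM against 871 to 2950 CPM (-0.67 ± 0.35). Without FL1, LNnT1 and LNnT2 the list's median was -0.52.

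Fucosylation genes split, with 10 of 21 positive and a median of -0.0055. Fut2, which adds the terminal fucose of gut mucosal glycans, had 1.15, 1.91, 1.64, 1.54 and 2.21 CPM in EW+2'-FL and 0.604, 0.346, 0.717, 1.35 and 0.354 CPM in EW+LNnT. Only LNnT4 lay in the range of the other group, and the log2 difference was 1.32 ± 0.39 (0.52 to 2.12, unadjusted p = 0.0023). The difference ranged from 0.94 to 1.74 across the subsets of libraries tried. EW libraries held 0.613 to 0.884 CPM and suckling controls 0.885 to 1.22 CPM. EW+HMOs libraries, whose pups were also given 2'-FL, spanned 0.374 to 1.61 CPM and overlapped both groups. Gmds, which starts the synthesis of the fucose donor, had 0.46 ± 0.19, and the mucin glycan branching enzyme Gcnt3 had 0.51 ± 0.18. The next enzyme of the donor pathway, Gfus, and the donor transporter Slc35c1 had differences of -0.042 (-0.26 to 0.18) and -0.0055 (-0.30 to 0.29), both within 2-fold. Among galectins, the abundant epithelial Lgals4 differed by 0.054 (-0.21 to 0.31). Lgals3 was lower with 2'-FL at 294 to 577 CPM against 501 to 874 CPM (-0.52 ± 0.19, and -0.12 among FL3 to FL5 and LNnT4 and LNnT5).

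Of 23 junction genes tested, 18 had intervals within 2-fold, against 52.6% of all genes and 85% of those with at least 5 CPM. The median was -0.18. Tjp1 (ZO-1), the scaffold of the tight junction, had 133, 50.2, 93.7, 113 and 98.2 CPM in EW+2'-FL and 151, 154, 150, 103 and 126 CPM in EW+LNnT. FL2 was lowest and most EW+LNnT libraries were higher, and the difference was -0.49 ± 0.20 (-0.91 to -0.069). It was -0.32 without FL2 and -0.17 among FL3 to FL5 and LNnT4 and LNnT5. Ocln, the strand protein occludin, had 204 and 210 CPM in FL1 and LNnT1, 82.3 to 110 CPM in the other EW+2'-FL libraries and 128 to 145 CPM in the other EW+LNnT libraries (-0.37 ± 0.19, -0.77 to 0.027). Its difference was -0.68 without FL1 and -0.22 without LNnT1. Cldn3, a sealing claudin, differed by -0.13 (-0.45 to 0.19). Cdh1, the E-cadherin of adherens junctions, was at 339 to 599 CPM against 504 to 780 CPM (-0.49 ± 0.15, and -0.19 among FL3 to FL5 and LNnT4 and LNnT5), and Cldn4 at 11.8 to 83.5 CPM against 30.5 to 171 CPM (-1.16 ± 0.48, and -0.58 in those 5 libraries). Cldn5, the claudin of endothelium, was the single member of the 23 without overlap, against 0.294% of all genes upward. It was at 2.21 to 11.7 CPM against 1.53 to 2.18 CPM, so the groups nearly met (1.2 ± 0.34, and 0.47 without FL2). Such separation alone does not set a gene apart from chance.

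Crypt stem cell genes leaned upward, with 10 of 11 positive and a median of 0.34. Of the 11, 4 were higher at an unadjusted p under 0.05, against 4.52% of all genes. The median was 0.22 without FL2, 0.19 without FL3, 0.12 among libraries with Y-linked transcripts and 0.042 among FL3 to FL5 and LNnT4 and LNnT5. Lgr5, the receptor that marks these stem cells, had 11.4, 10.4, 12.1, 8.13 and 13.5 CPM in EW+2'-FL and 7.23, 5.74, 6.05, 8.63 and 9.25 CPM in EW+LNnT. FL4 fell within the EW+LNnT range and the others lay above it. The log2 difference was 0.59 ± 0.17 (0.24 to 0.94, unadjusted p = 0.002), and 0.33 among FL3 to FL5 and LNnT4 and LNnT5. EW libraries had 10.1 to 16.9 CPM. Smoc2, a matrix protein of the stem cell zone, had 0.76 ± 0.27 (0.042 in the same 5 libraries), and Axin2, a Wnt target, 0.34 ± 0.35. Proliferation genes differed by at most 0.24 in either direction, and all 16 had intervals within 2-fold.

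Most digestive enzymes and transporters had intervals that included 0. Lct, the lactase of milk digestion, had 427, 803, 1890, 2470 and 2120 CPM in EW+2'-FL and 937, 1580, 2050, 2480 and 3050 CPM in EW+LNnT, with wide overlap (-0.39 ± 0.35, -1.12 to 0.34). Sis, the sucrase-isomaltase of solid food, differed by -0.032 (-0.64 to 0.57), and its sign turned in several alternatives. The median of the 16 nutrient transporters was -0.11, and 14 had intervals within 2-fold. Slc34a2, a phosphate transporter, had 24.3, 8.28, 8.51, 23.8 and 14.6 CPM against 26.3, 22.6, 27, 65.2 and 65.2 CPM. LNnT4 and LNnT5 were far above the rest, and the difference was -1.38 ± 0.55 (-2.52 to -0.24, unadjusted p = 0.02).

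Detoxification genes were mostly lower with 2'-FL, with 20 of 22 negative and a median of -0.28. The median was -0.13 without FL2 and -0.11 among FL3 to FL5 and LNnT4 and LNnT5. A single member (of 22) had an unadjusted p under 0.05, a share close to the 3.99% of all genes that were lower at that threshold. Cyp2b10, a cytochrome induced through the receptor CAR, had 321, 189, 237, 349 and 291 CPM against 400, 488, 309, 309 and 491 CPM (-0.53 ± 0.21). FL1 and FL4 lay above LNnT3 and LNnT4, and 14 of the 22 intervals lay within 2-fold. Cyp1a1, the cytochrome switched on by the aryl hydrocarbon receptor, was low and scattered, at 0.351 to 5.95 CPM against 0.302 to 2.89 CPM (1.26, -0.48 to 2.99). Its co-target Tiparp had a negative difference of -0.68 ± 0.19 (-0.087 among FL3 to FL5 and LNnT4 and LNnT5).

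**Figure D4:**
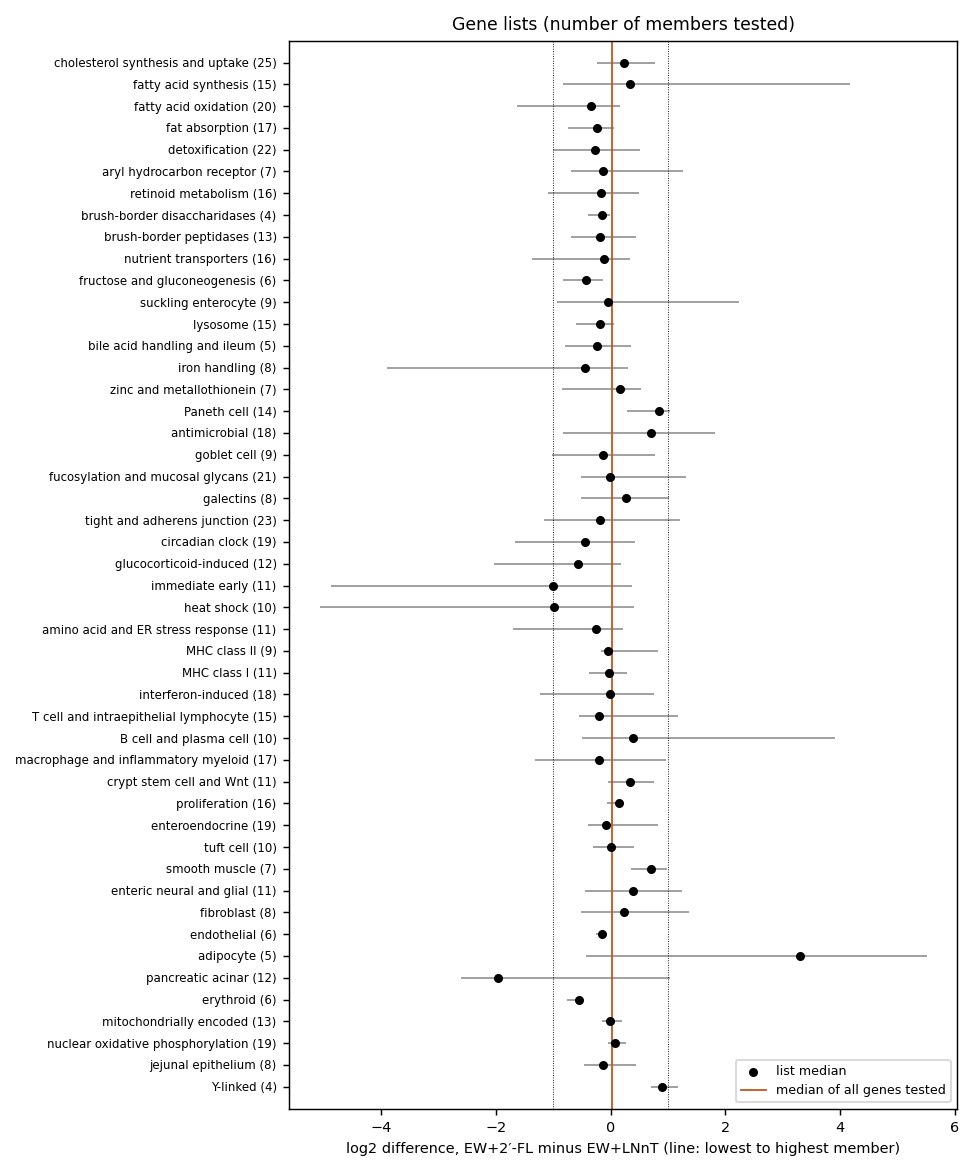
Median log2 difference (EW+2'-FL minus EW+LNnT; points) and range from the lowest to the highest member (grey lines) of 48 gene lists, with the number of members tested; the orange line is the median of all genes, 0.02. Most medians lie within 0.5 of it. Farther out lie the adipocyte (3.30), pancreatic acinar (-1.97), immediate early (-1.01), heat shock (-0.99), Y-linked (0.89), Paneth cell (0.85), antimicrobial (0.71), smooth muscle (0.70), glucocorticoid-induced (-0.57) and erythroid (-0.56) lists.

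Fatty acid oxidation genes were lower with 2'-FL in 19 of 20 cases, with a median of -0.34. Of the 20, 8 were lower at an unadjusted p under 0.05, against 3.99% of all genes. Slc25a20, which carries acylcarnitines into mitochondria, had 35.8, 31, 47.6, 40.8 and 31.5 CPM in EW+2'-FL and 54.3, 67.7, 41.1, 57.1 and 64.5 CPM in EW+LNnT. FL3 lay above LNnT3, and the other libraries were apart. The difference was -0.61 ± 0.17 (-0.96 to -0.26, unadjusted p = 0.0015) and -0.60 among FL3 to FL5 and LNnT4 and LNnT5. Vnn1, a pantetheinase induced by PPAR-alpha, had -0.94 ± 0.34. The list's median was -0.12 without FL1, LNnT1 and LNnT2. In fat absorption 16 of 17 genes were negative (median -0.24). Apob, the scaffold of chylomicrons, had 5270, 907, 2100, 4640 and 3220 CPM against 6040, 5970, 4680, 4910 and 5620 CPM (-0.75 ± 0.32). FL2 and FL3 were lowest, and FL1 overlapped with EW+LNnT.

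Of 25 cholesterol synthesis genes, 20 had intervals within 2-fold, against 52.6% of all genes and 85% of those with at least 5 CPM. The median was 0.23. An unadjusted p under 0.05 was reached by 5 members, all upward, against 4.52% of all genes upward. Fdft1, which makes squalene, had 13.9, 10.2, 21.3, 14.7 and 21.9 CPM in EW+2'-FL and 9.4, 13.5, 11.2, 13.5 and 12 CPM in EW+LNnT. FL3 and FL5 were high, FL2 lay within the EW+LNnT range, and the difference was 0.46 ± 0.22 (0.014 to 0.90). Fdps had 0.58 ± 0.26 and Acat2 0.46 ± 0.20. The median was 0.042 without LNnT1.

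Scd1, the stearoyl-CoA desaturase, had the largest difference among the genes of smallest p above LNnT, together with markers of fat tissue. It had 5.54, 33.7, 167, 18.4 and 1.82 CPM in EW+2'-FL and 6.62, 1.67, 2.18, 0.771 and 1.49 CPM in EW+LNnT. FL2, FL3 and FL4 were high, FL1 and FL5 lay in the EW+LNnT range, and the log2 difference was 4.17 ± 1.06 (1.96 to 6.37), or 2.56 without FL3. EW libraries spanned 3.09 to 79.2 CPM. Adiponectin (Adipoq), a hormone made by fat cells, had 0, 2.61, 12.6, 2.48 and 0.171 CPM against 0, 0, 0.229, 0.145 and 0 CPM. The fat cell protease Cfd (adipsin) had 0, 5.6, 34.9, 5.74 and 0.0914 CPM against 0, 0, 0.488, 0.369 and 0.13 CPM, high in the same 3 libraries. Of 5 adipocyte markers tested, 4 reached an unadjusted p under 0.05 upward, against 4.52% of all genes. The list's mean log2 CPM was -0.22 to 5.0 against -0.66 to 1.72. The list's median difference was 3.30, and 1.74 without FL3. The part of fat tissue in the Scd1 difference was not tested.

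Clock genes differed in a way that set single libraries and groups apart together. The circadian clock is a loop in which Bmal1 with Clock or Npas2 drives the Per, Cry, Nr1d1, Dbp and Ciart genes through E-boxes, Nr1d1 represses Bmal1 and Nfil3 through ROR elements, and Dbp and its relatives act on D-boxes. The bases before the start of 4 clock genes are shown because those elements lie there. They run 5' to 3' on the gene's strand and come from RefSeq (GRCm38.p6, all on the minus strand). Capitals mark CACGTG, the E-box, in Ciart (positions -138 to -19 from the start, chr3:95882247-95882366) and in Cry1 (-154 to -35, chr10:85185089-85185208). In Per3 they mark TTANGTAA, the D-box (-250 to -131, chr4:151044796-151044915). In Nfil3 they mark TGACCT, the reverse complement of the ROR half-site AGGTCA (-120 to -1, chr13:52981040-52981159).
Ciart: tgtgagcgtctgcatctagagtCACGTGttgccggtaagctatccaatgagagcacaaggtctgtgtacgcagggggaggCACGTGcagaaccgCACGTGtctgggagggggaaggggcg
Cry1: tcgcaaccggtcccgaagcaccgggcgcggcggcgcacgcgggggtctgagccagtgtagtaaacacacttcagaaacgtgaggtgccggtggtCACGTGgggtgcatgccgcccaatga
Per3: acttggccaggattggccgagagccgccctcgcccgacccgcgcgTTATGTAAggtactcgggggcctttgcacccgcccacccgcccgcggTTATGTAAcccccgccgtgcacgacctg
Nfil3: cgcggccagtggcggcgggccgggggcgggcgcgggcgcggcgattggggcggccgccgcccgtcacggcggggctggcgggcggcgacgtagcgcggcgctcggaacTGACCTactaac
On both strands of the 250 bases before the start, CACGTG was found in 6.02% of 32851 windows, TTANGTAA in 2.06% and AGGTCA in 14%. Among the 16 of 19 clock genes with an entry, 5 held CACGTG (Bhlhe41, Ciart, Cry1, Per1 and Tef), 1 held TTANGTAA (Per3) and 4 held AGGTCA (Clock, Nfil3, Nr1d2 and Per1). A match is a description of the letters and not of a bound site.

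Bmal1 had 14.2, 13.7, 17.6, 19.9 and 16.9 CPM in EW+2'-FL and 13.6, 30.7, 54.6, 40.8 and 32.8 CPM in EW+LNnT. LNnT1 lay just under the EW+2'-FL range and the other EW+LNnT libraries above it, and EW libraries spanned 13.9 to 24.9 CPM. The log2 difference was -1.07 ± 0.26 (-1.61 to -0.52, unadjusted p = 0.00045) and -1.02 among FL3 to FL5 and LNnT4 and LNnT5. Nfil3, a repressor that competes at D-boxes, had 31.7, 13, 7.47, 8.99 and 5.81 CPM against 85.7, 27.8, 55.9, 21.7 and 21 CPM. FL1 alone overlapped, and the difference was -1.66 ± 0.40 (-2.49 to -0.84), or -2.26 without FL1, where edgeR called it (adjusted p = 0.034). EW libraries held 5.3 to 8.7 CPM and EW+HMOs libraries 4.6 to 5.53 CPM of Nfil3.

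Genes that Bmal1 activates formed another pattern. Nr1d1, the heme-binding repressor of Bmal1, had 244, 18.6, 40.9, 65 and 56.2 CPM in EW+2'-FL and 434, 304, 37.3, 11.3 and 9.29 CPM in EW+LNnT. FL1, LNnT1 and LNnT2 were highest and LNnT4 and LNnT5 lowest, and the difference over all libraries was -0.91 ± 0.77 (-2.50 to 0.69). Ciart, whose 3 E-boxes are shown, had the same order, with 22.7, 2.37, 3.57, 2.91 and 4.57 CPM against 50.9, 38.3, 2.83, 1.04 and 0.898 CPM (-1.38 ± 0.86). Dbp had 108, 20.2, 37.7, 44.1 and 41.2 CPM against 98.4, 82.5, 25.5, 8.83 and 6.79 CPM (0.18 ± 0.55). Per3, with its pair of D-boxes, was at 43.8 to 88.6 CPM against 33 to 70.6 CPM (0.37 ± 0.21).

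Within FL3 to FL5 against LNnT4 and LNnT5, Nr1d1, Ciart and Dbp were higher with 2'-FL (2.39, 1.93 and 2.39), while Bmal1 and Nfil3 were lower (-1.02 and -1.52). Over all 19 clock genes 13 were negative, and the median was -0.45. An unadjusted p under 0.05 was reached by 5 downward, against 3.99% of all genes. Without FL1, LNnT1 and LNnT2 the median was 0.032, and among libraries with Y-linked transcripts it was 0.58. Bhlhe40, a repressor of the E-box, had -1.01 ± 0.27 (-0.14 in those 5 libraries), and Per2 had 59.1, 65.1, 97.9, 105 and 69.3 CPM against 92.8, 91.1, 158, 99.3 and 114 CPM (-0.48 ± 0.18, and -0.23 in those 5). The hour at which tissue was taken is not given in the sources used here, so it cannot be told apart from the libraries.

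**Figure D5:**
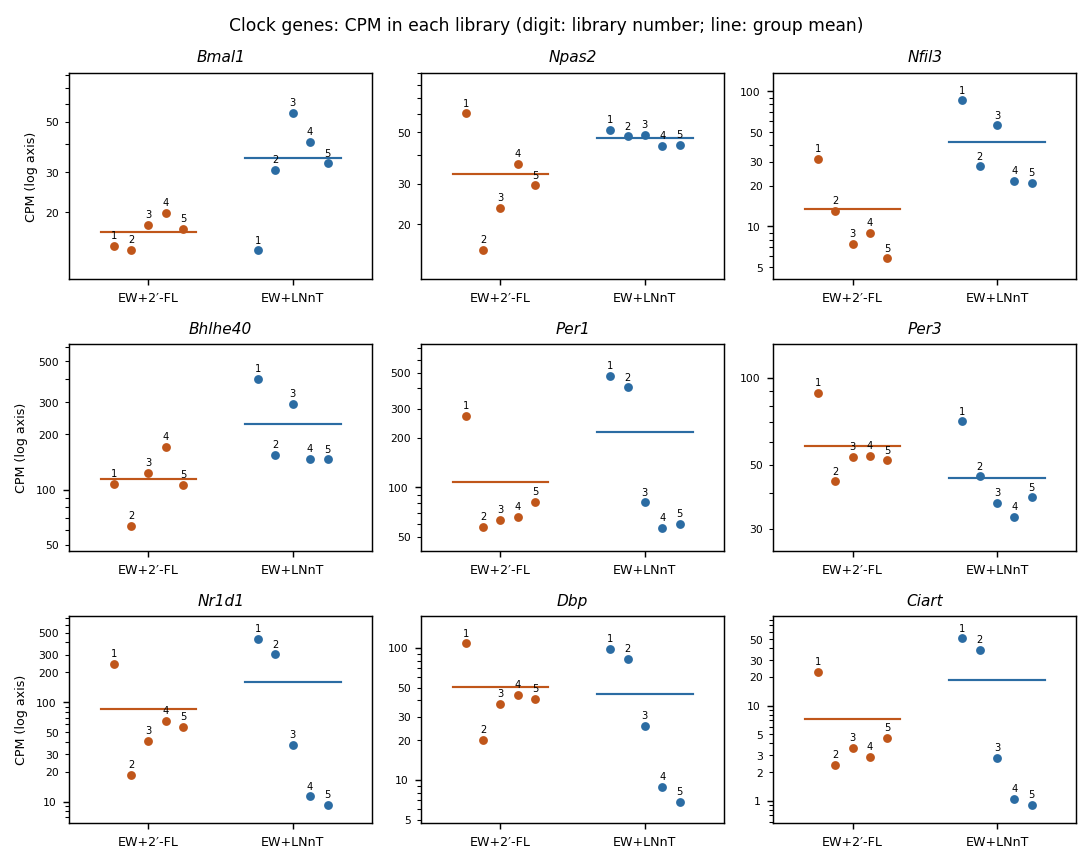
CPM of 9 clock genes in each library (log axis; EW+2'-FL left, EW+LNnT right; digits are library numbers and lines are group means). Per1, Nr1d1, Dbp and Ciart are high in FL1, LNnT1 and LNnT2, and Bmal1 is at 13.7 to 19.9 CPM in EW+2'-FL against 30.7 to 54.6 CPM in LNnT2 to LNnT5.

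Genes induced by glucocorticoids were high in the same 3 libraries. Their mean log2 CPM was 7.95 in FL1 and 8.02 and 7.93 in LNnT1 and LNnT2, against 6.13 to 6.46 in the other EW+2'-FL libraries and 6.31 to 6.75 in the other EW+LNnT libraries. Of the 12 genes, 11 had negative differences (median -0.57). The median was -0.32 without these 3 libraries and -1.22 without FL1 alone. It was 0.39 among libraries with Y-linked transcripts and -0.089 among FL3 to FL5 and LNnT4 and LNnT5. The part of these 3 libraries in the differences was not tested. Dusp1 did not follow them, with 342 CPM in LNnT3 against 35.4, 44.6 and 37.9 CPM in FL1, LNnT1 and LNnT2 (-2.03 ± 0.61). Sgk1, a kinase that regulates sodium uptake, had 1400, 222, 412, 418 and 736 CPM against 1550, 1860, 178, 636 and 867 CPM (-0.67 ± 0.44).

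Immediate early and heat shock genes were far higher in LNnT3 than in any other library. Atf3, a stress-induced repressor, had 6.81, 6.89, 3.3, 18.4 and 11.4 CPM in EW+2'-FL and 49.7, 10.9, 1290, 6.97 and 10.6 CPM in EW+LNnT. The log2 difference of -4.87 ± 1.14 was -1.06 without LNnT3 and 0.33 among FL3 to FL5 and LNnT4 and LNnT5. Jun, a subunit of AP-1, had 98.5, 44.8, 49.5, 83.1 and 82.6 CPM against 175, 117, 1250, 84.5 and 107 CPM (-2.27, and -0.75 without LNnT3). Hspa1a, the inducible Hsp70 chaperone, had 1.85, 91.4, 7.12, 36.9 and 3.38 CPM against 3.06, 2.08, 4710, 3.56 and 8.82 CPM. Without LNnT3 its difference went to 2.68, where FL2 and FL4 were highest. The medians of both lists, -1.01 and -0.99, were 0.027 and 0.61 without LNnT3. Hmox1, which breaks down heme, had 383 CPM in LNnT3 and 2.21 to 17.4 CPM in the other 9 libraries.

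Klf6, a zinc finger factor of early responses, had 214, 101, 97.2, 165 and 129 CPM in EW+2'-FL and 514, 288, 673, 147 and 160 CPM in EW+LNnT. LNnT1 to LNnT3 were above all EW+2'-FL libraries and LNnT4 and LNnT5 within their range. The difference of -1.34 ± 0.31 was -0.23 among FL3 to FL5 and LNnT4 and LNnT5. LNnT1 to LNnT3 are also the EW+LNnT libraries marked by Xist, so sex and other traits of these libraries cannot be told apart. Slc25a25 followed the same split (-1.41 ± 0.35, and 0.13 in those 5). Chka was highest in LNnT1 to LNnT3 (351 to 1090 CPM), with 255 and 197 CPM in LNnT4 and LNnT5 and 125 to 249 CPM in EW+2'-FL (-1.28 ± 0.31, and -0.20 in those 5).

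Markers of other cell types followed single libraries more than groups. All 7 smooth muscle genes had positive differences (median 0.70, and -0.045 without FL2). Myh11, their myosin heavy chain, had 236, 1270, 297, 184 and 160 CPM in EW+2'-FL and 202, 314, 138, 192 and 245 CPM in EW+LNnT. The fibroblast proteoglycan Lum had 11, 83.4, 22.7, 13.8 and 13 CPM against 10.6, 10.6, 8.7, 11.9 and 13.8 CPM (1.37 ± 0.40, and 0.45 without FL2). B cell transcripts were likewise highest in FL2, where the surface protein Ms4a1 (CD20) had 5.19 CPM against at most 0.524 CPM elsewhere in the 10 libraries. T cell genes had a median of -0.21 and were lowest in FL1, LNnT1 and LNnT2. Pancreatic acinar genes had a median of -1.97, which was 10.5 without FL1, LNnT1 and LNnT2, because FL5 then alone held the enzyme transcripts.

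Inflammatory cytokines were near the limit of detection. Tnf had 0, 0.0644, 0.217, 1.24 and 0.594 CPM in EW+2'-FL and 0.0604, 0.173, 2.22, 0.369 and 0.685 CPM in EW+LNnT, with overlap (-0.73, -2.74 to 1.28). Il1b had 0.304, 0.257, 0.63, 1.09 and 1.85 CPM against 0.161, 0, 5.06, 1.31 and 2.73 CPM (-1.16, -2.89 to 0.56). The macrophage list had 3 of 17 positive and a median of -0.20. Medians of the interferon-induced, MHC class I and MHC class II lists were -0.013, -0.032 and -0.055, and no member reached an unadjusted p under 0.05. Intervals lay within 2-fold for 6 of 18, 9 of 11 and 6 of 9 members. Interferon-induced members ranged from -1.24 to 0.76, so that list was loosely bounded.

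Some lists were closely bounded, as were 52.6% of all genes and 85% of those with at least 5 CPM. All 19 nuclear genes of oxidative phosphorylation had intervals within 2-fold (median 0.069), as did all 13 mitochondrially encoded genes (-0.014), all 16 proliferation genes (0.14) and all 6 endothelial genes (-0.15). By comparison, 0 of 7 smooth muscle, 0 of 10 B cell, 2 of 14 Paneth cell and 2 of 18 antimicrobial genes were bounded in that way.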

How the data were processed

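RNA was sequenced from mouse jejunum as strand-specific poly(A) libraries, per the labels' protocols. Tools named in the submitters' processing notes are HISAT2 2.2.1, StringTie 2.1.6 and cutadapt 1.9, with edgeR and DESeq2, on GRCm39, in no stated order or role. Every comparison used the deposited raw counts, whole numbers for each Ensembl gene and library. The authors' FPKM values, which relate counts to transcript length and depth, served for 2 alternatives, and symbols and positions came from the deposited annotation columns. No source used here gives the counting program, annotation release or treatment of shared reads, which bears on Reg3b and Reg3g, Hspa1a and Hspa1b, and the Defa genes.

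Of 57132 genes, 35723 had a count and 22131 passed filterByExpr. For all 25 libraries, TMM-scaled counts entered edgeR 4.0.16 (R 4.3.3) in a robust quasi-likelihood model with 1 mean per group and no covariate. The contrast was EW+2'-FL minus EW+LNnT, and this was the 1 pair of compounds compared. Log2 differences use edgeR's default prior count, with standard errors taken from the test, and 95% intervals follow from them. The depth of 58.7 to 89.5 M counts a library (M for 1e6) sets the counting error. The test was checked on simulated counts. List scores are means of log2 CPM with a prior count of 2, and lists received no test.

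Named genes were, for each direction, the 10 of smallest p that averaged at least 5 CPM in the group with more and whose libraries, in either group, all lay to one side of the mean of the other, up to 3 members of each list with at least 1 CPM, and a panel of 16 genes. Predicted genes were left out. Further list members were picked for the text with their values known. The members and the 48 lists were chosen with earlier results of these data known. Of 602 list genes, 601 were found and 593 tested. Promoter windows are RefSeq's. DESeq2, limma, other scalings, filters and subsets of libraries were tried as alternatives.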

Additional observations from a re-analysis of the deposited data

Results flagged for a closer look

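In 160 groups of 5 values (named genes and list scores in each group), 17 held a library whose gap to its nearest neighbour exceeded Dixon's 95% critical value, where chance gives about 1 in 20. Among genes, these were Gas1 in FL2 (52.7 CPM), Zbtb21 in FL2 (9.85 CPM, the lowest), Reg3b and Reg3g in FL3 (728 and 216 CPM, the lowest), Jun in LNnT3 (1250 CPM) and Ocln in LNnT1 (210 CPM).

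List scores, as mean log2 CPM, were flagged high in FL2 for smooth muscle (8.48) and fibroblast genes (7.3), in LNnT3 for immediate early (7.03) and heat shock genes (9.66), in FL1 for glucocorticoid-induced genes (7.95) and in FL5 for pancreatic acinar genes (8.08). They were flagged low in FL1 for goblet cell (6.31) and retinoid genes (3.98), in FL3 for endothelial genes (3.78), and in LNnT1 for cholesterol synthesis (4.1) and antimicrobial genes (0.99).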

How the results depend on the processing

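In 25 alternatives, the count of called genes was 0 except for DESeq2 (66), limma on log2(FPKM + 1) (1) and the fit without FL1 (4: Nfil3, Khnyn, Atxn1 and Mafk), so that leaving out single libraries gave 0 to 4. Genes at an unadjusted p under 0.05 numbered 541 with the 2 groups fitted alone, and 1033 to 4185 without single libraries. Genes with intervals within 2-fold numbered 10622 to 12309 without single libraries and 9449 to 15461 otherwise, apart from 20889 with limma on log2(FPKM + 1), where the pseudocount shrinks low genes. Library numbers did not pair the samples (correlations of deviations 0.50, -0.092, 0.17, 0.21 and 0.019; 2 of 5 EW+2'-FL libraries correlated best with their own number), and the fit with the replicate block called 0 genes. Atf3 reached 0.19 and Slc25a25 0.25 among libraries with Y-linked transcripts only, and 0.33 and 0.13 among FL3 to FL5 and LNnT4 and LNnT5. Tnf was 0.38 without LNnT3 (-1.66 to 0.38 over single libraries left out) and 0.37 in those 5 libraries. Sis turned positive with voom (0.30), library totals (0.053), Y-linked libraries (0.15), without FL1, LNnT1 and LNnT2 (0.17), without FL1 (0.015), FL2 (0.19) or LNnT2 (0.14; -0.20 to 0.19 over single libraries), and in those 5 libraries (0.26); for these reversals the cause was not tested. The other genes of smallest p and of the panel kept their sign. Subsets of 2 to 4 libraries a side estimate little of their own spread, and low genes such as Tnf are limited by depth.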
